A study of Homo sapiens with 30 samples.

Results

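Translation initiation and elongation factors were followed through 10 groups of LNCaP libraries. LNCaP cells are a human prostate cancer line that responds to androgens. The set holds every gene symbol made of EIF and a number from 1 to 6, or of EEF and 1 or 2 plus at least 1 more character, without the eIF2 kinases (EIF2AK) and the Y-linked EIF1AY. It has 60 members among 26475 genes listed, of which 26443 have values. EEF2, the translocation factor, has no character after its number and so falls outside the rule. Its values are given beside the members. Each group had 3 libraries. In the pLKO experiment, named after its vector, cells were infected for 5 days with an shRNA against USP7 (a deubiquitinase), BUB3 (a spindle checkpoint protein) or FOXA1 (a pioneer transcription factor), and the reference was the pLKO control. In the siRNA experiment, cells were transfected for 4 days with siEZH2, against the histone methyltransferase EZH2, or with a control siRNA (siCtrl). In the pGIPZ experiment, cells were infected for 5 days with shFoxA1 together with HA-tagged FOXA1 carrying the K295A change (here K295A), with shFoxA1 together with HA-tagged wild-type FOXA1 (here WT), with shFoxA1 and a control, or with the pGIPZ control. The labels state the 5 days by a range of library names that leaves out the third K295A library. The labels name 1 shRNA or siRNA per target and do not say whether the 3 libraries of a group came from separate cultures. The p-values therefore measure only how these libraries vary, which may be technical. All cells were grown in RPMI medium with serum, so androgens and growth factors were present in every group.

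Translation starts when eIF4F (the cap-binding eIF4E, the scaffold eIF4G and the helicase eIF4A) loads an mRNA onto a small ribosomal subunit that carries eIF3 and the eIF2 ternary complex with initiator tRNA. The 4E-binding proteins hold eIF4E away from eIF4G until the kinase mTOR phosphorylates them, and eIF2B recharges eIF2 with GTP. eEF1A then delivers aminoacyl-tRNA to the elongating ribosome, the eEF1B subunits recharge eEF1A, and eEF2 moves the ribosome along unless EEF2K phosphorylates it. The mRNAs of ribosomal proteins and of several of these factors begin with a cytidine and a run of pyrimidines, the terminal oligopyrimidine (TOP) element, through which mTOR and LARP1 control their translation and stability. Prostate cancer cells are known for active mTOR signalling to these factors.

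The letters at the annotated transcript start are shown first, because they separate members with a pyrimidine tract from members without one and the fold changes are set against that division further on. Each window runs from 10 bases before to 20 bases after the start, 30 bases 5′ to 3′ on the transcript strand (RefSeq, GRCh38.p14), and capitals mark the tract, a C at most 5 bases before the first base followed by at least 4 more pyrimidines (C or T) in a run that covers the first base.

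EEF1A1, chr6:73521013-73521042, minus strand: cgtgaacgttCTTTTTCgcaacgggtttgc

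EEF1B2, chr2:206159885-206159914, plus strand: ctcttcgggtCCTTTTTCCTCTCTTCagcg

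EIF4B, chr12:53006446-53006475, plus strand: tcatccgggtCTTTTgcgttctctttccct

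EIF3F, chr11:7987327-7987356, plus strand: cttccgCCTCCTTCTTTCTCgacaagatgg

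EIF3M, chr11:32583821-32583850, plus strand: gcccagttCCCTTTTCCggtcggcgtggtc

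EIF2A, chr3:150546777-150546806, plus strand: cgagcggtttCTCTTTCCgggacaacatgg

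EIF2S3, chrX:24054946-24054975, plus strand: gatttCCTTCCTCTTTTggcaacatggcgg

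EEF2, not a member, chr19:3985444-3985473, minus strand: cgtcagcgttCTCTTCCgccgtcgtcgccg

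The other windows have no such tract and belong to members that the results turn on.

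EIF4EBP2, chr10:70404135-70404164, plus strand: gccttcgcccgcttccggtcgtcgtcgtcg

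EEF2K, chr16:22206268-22206297, plus strand: gcccgcttctgctcaacctagaccagcccc

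EIF4E, chr4:98929114-98929143, minus strand: tggagcggttgtgcgatcagatcgatctaa

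EIF2S1, chr14:67360318-67360347, plus strand: gaggttccgcatgcgcggtggagtgagcga

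EEF1G, chr11:62573872-62573901, minus strand: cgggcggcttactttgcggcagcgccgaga

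A tract was found at the start of 12 of the 47 members with a window (25.5%), against 2631 of all 27305 genes with a window (9.64%). EEF1B2 has a second annotated start without it. The match describes letters at an annotated start and says nothing of the start used in these cells.

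Libraries differed in ways that touch the set. Depth relative to the first control library of each table, read from the steps between low values, was 0.602 to 1.30 for the FPKM libraries and 0.847 to 1.30 for the RPKM libraries. The sum of all FPKM values was 367614 in the third shBUB3 library and at most 306578 in the rest of that experiment, so results with shBUB3 were also computed without that library. USP7 was 6.13 to 6.38 FPKM in shUSP7 libraries against 27.6 to 28.6 in pLKO, and BUB3 was 3.47 to 4.70 in shBUB3 libraries against 33.7 to 38.3. FOXA1 was 57.7 to 60.9 FPKM in shFOXA1 libraries against 116 in each pLKO library. EZH2 was 4.83 to 5.08 FPKM in siEZH2 libraries against 11.7 to 13.5 in siCtrl. FOXA1 was 149 to 155 RPKM with K295A, 151 to 152 with WT, 80.4 to 84.0 with shFoxA1 alone and 129.6 to 134 in pGIPZ. All 12 luminal markers were at 1 or more in all 30 libraries, while other cell types' markers were low but moved with some groups. The summed stromal markers were 11.4 to 14.8 FPKM in siEZH2, against 3.31 to 4.08 in siCtrl. The summed basal markers were 3.81 to 4.70 FPKM in shFOXA1, against 0.925 to 1.35 in pLKO, and 6.43 to 8.48 RPKM with shFoxA1, against 3.73 to 4.15 in pGIPZ. They were 1.62 to 1.92 RPKM with K295A and 1.64 to 2.78 with WT. The summed endothelial markers were 4.28 to 4.62 FPKM in shUSP7, 2.91 to 3.46 in shBUB3 and 0.110 to 0.248 in shFOXA1, against 1.70 to 1.77 in pLKO. Of these lists, 2 of 4 basal, 3 of 6 stromal and 2 of 3 endothelial markers were under 1 in all 30 libraries. Of the immune markers, CD68 reached 34.7 RPKM, its highest value, in an shFoxA1 library, and PTPRC and CD3E were under 1 in every library. The summed luminal markers moved with the groups. They were 1503 to 1574 FPKM in shUSP7, 1764 to 2022 in shBUB3 and 1841 to 1938 in shFOXA1, against 2632 to 2688 in pLKO, and 834 to 947 in siEZH2, against 2698 to 2775 in siCtrl. They were 2185 to 2203 RPKM with K295A, 2263 to 2320 with WT, 2541 to 2583 with shFoxA1 alone and 2996 to 3055 in pGIPZ. The part of these marker differences in the results that follow was not tested. In bulk RNA, fewer cells of a type and less RNA per cell cannot be told apart.

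In pLKO controls the members spanned a wide range of levels per length. EEF1A1 averaged 1117 ± 37.2 FPKM, EEF1G 539 ± 19.2, EEF1A2, the form of eEF1A found in neurons and muscle and in some tumours, 319 ± 10.8, and EIF1 237 ± 10.5 (SD, n = 3). The cap-binding EIF4E averaged 8.77 ± 0.310 FPKM, well under its scaffold EIF4G1 (164 ± 6.53) and its inhibitor EIF4EBP1 (106 ± 2.98), and the eEF2 kinase EEF2K 6.25 ± 0.216. EIF4A1 and EIF3CL were listed at 0 in all 30 libraries, and EIF3C in all but 1 (0.00713 FPKM). These are core factors, and a value listed at 0 here is no measurement of their absence. The read-through entry SENP3-EIF4A1 held 0.0100 to 0.233.

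The same gene could stand at very different levels in the 3 controls. EEF1A1 averaged 1117 FPKM in pLKO, 127 FPKM in siCtrl and 78.6 RPKM in pGIPZ, while EEF1A2 averaged 319, 292 and 378. EEF1A1 has 39 annotated pseudogenes and EEF1A2 has 0. Over the 24 members with annotated pseudogenes and a mean of at least 1 in all 3 controls, the median ratio of pGIPZ to pLKO was 0.598, and 6 stood under 0.5. Over the 27 without, it was 0.923, and 0 stood under 0.5. For siCtrl to pLKO, which stand in the same table, the median ratios were 0.984 with pseudogenes and 1.196 without, and 2 and 0 members stood under 0.5. The tables were normalized separately and reads shared with pseudogenes cannot be placed from gene-level values, so levels are compared only within a table, and the part of read assignment in the ratios was not tested. The same limit holds for the other members with annotated pseudogenes. Among them are EIF4B, EEF1B2, EIF4E, EIF2A, EEF1G, EEF1D, EIF3F, EIF3L, EIF4H, EIF5A, EIF4EBP1 and EIF4EBP2. Members that overlap a gene on the other strand, such as EEF2K, EIF2S1, EIF4G2, EIF2B2 and EIF5A, share it, because nothing in the sources marks strand. EIF3L, EIF4EBP3 and EEF1G overlap an annotated gene on the same strand.

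**Figure D1:**
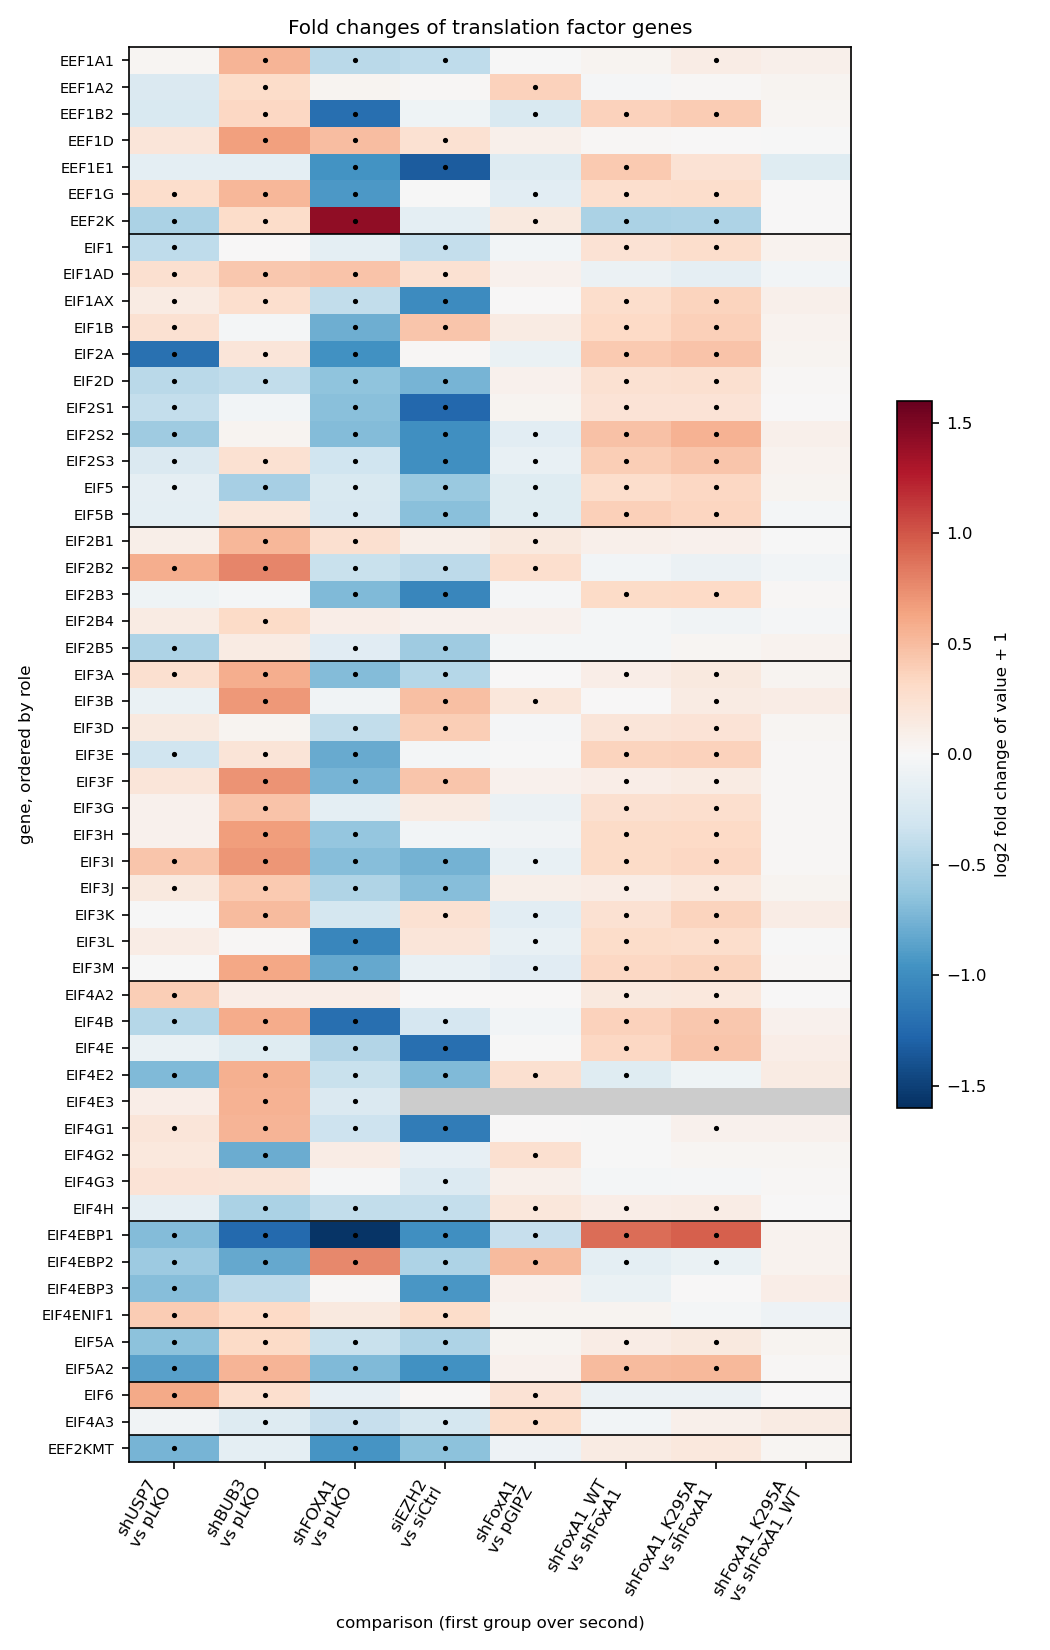
Log2 fold change (on the value + 1 scale) of each tested member, in rows grouped by role, for 8 comparisons in columns, first-named group over second. Dots mark adjusted p under 0.05 (limma) and grey cells were not tested; shBUB3 is mostly above 0, shFOXA1 and siEZH2 mostly below, and the last column, K295A over WT, has no dot.

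Members at a value of 1 or more in at least 3 libraries of an experiment were tested, which left 53 members in the pLKO experiment and 52 in each of the others. The 7 members without a test anywhere were EIF4A1, EIF3C, EIF3CL, EIF4E1B, EIF5AL1 and the pseudogenes EEF1DP3 and EIF3IP1. EIF4E3 and EIF4EBP3 in the pLKO experiment, and EIF5A2 in every experiment, reached 1 in part of the libraries only. They passed through the groups where they are high. They are in the counts of members tested and of members called, and their values there are given without a test. Counts by role, start letters, pseudogenes and crossed calls hold them too. This holds whatever the dots in the plot of fold changes by role show for them. EIF5A2 was counted higher after shBUB3, and with WT and K295A over shFoxA1. It was counted lower after shUSP7, shFOXA1 and siEZH2. EIF4E3 was counted higher after shBUB3 and lower after shFOXA1, and EIF4EBP3 lower after shUSP7. A member counts as higher or lower, or as called, at an adjusted p under 0.05 (limma on log2(value + 1), Benjamini-Hochberg adjustment over all genes tested). Fold changes are on that scale, which understates changes of values near 1, and are given with the standard error.

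After FOXA1 knockdown in the pLKO experiment, 5 of 53 members were higher and 36 lower, with a median log2 fold change of -0.37. Among all 12524 genes tested, 70.3% were called, 25.2% higher and 45.1% lower, and the median was -0.15. The members' share on the lower side was above that of all genes. Scaling by the median ratio between libraries, which raised the fold changes of all genes by a median of 0.145, left 9 higher and 30 lower. Of the 12541 genes tested after scaling, 4205 were higher and 4492 lower. The 3 shFOXA1 libraries did not overlap the 3 pLKO libraries for 47 of 53 members, against 79.4% of all genes. The members' sum was 1.62 to 1.65% of all FPKM in shFOXA1 libraries and 1.84 to 1.87% in pLKO.

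BUB3 knockdown went the other way, with 31 of 53 members higher and 8 lower and a median of 0.27. Of all genes, 65.2% were called, 33.3% higher and 32% lower, with a median of 0.01. Without the third shBUB3 library, 31 of 52 members were higher and 11 lower, and the median was 0.18. Of the 12473 genes tested without it, 4720 were higher and 4297 lower. The members' sum was 2.07 to 2.08% of all FPKM in shBUB3 libraries, above every pLKO library.

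USP7 knockdown gave 12 higher and 18 lower of 53 members, with a median of -0.06. This was near the background, since 62.2% of all genes were called, 29.1% higher and 33% lower. With median-ratio scaling the split was 17 and 17, and of 12541 genes tested 4175 were higher and 3775 lower. The 3 knockdowns share the pLKO libraries, so they were also compared with each other directly. Against shUSP7, shBUB3 had 33 members higher and 8 lower (36.2% and 29% of all genes, 65.2% in either direction), and shFOXA1 had 10 higher and 29 lower (28.1% and 42.9%, 70.9% in either direction). Against shBUB3, shFOXA1 had 5 higher and 38 lower (27.6% and 45.8%, 73.4% in either direction), where scaling raised the fold changes of all genes by a median of 0.127.

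EZH2 knockdown lowered 29 of 52 members and raised 8, with a median of -0.33 against -0.16 for all genes. Of all genes, 63.3% were called, 20.3% higher and 43% lower. Scaling raised the fold changes of all genes by a median of 0.134 and gave 14 higher and 26 lower members. Of the 11911 genes tested then, 3421 were higher and 4046 lower.

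FOXA1 knockdown in the pGIPZ experiment gave 11 members higher and 11 lower of 52, with a median of 0.00, against 49.2% of all genes called, 25% higher and 24.2% lower. The shFoxA1 and pGIPZ libraries did not overlap for 25 of 52 members, against 56.4% of all genes. The split was 11 higher and 7 lower without the first shFoxA1 library, and 11 and 8 without the first pGIPZ library. Of all genes, 2783 were higher and 2784 lower of 12434 without the former, and 3001 and 2700 of 12490 without the latter. Against those same shFoxA1 libraries, which both comparisons share, WT gave 32 higher and 3 lower (36.6% and 18.9% of all genes, 55.5% in either direction), and K295A gave 34 higher and 2 lower (38.7% and 18.3%, 56.9%). With scaling these splits were 25 to 9 for WT and 25 to 10 for K295A. Of the 12568 genes tested after scaling, 3273 were higher and 3297 lower for WT, and 3267 and 3358 for K295A. The members' sum was 1.33% of all RPKM with K295A and 1.31% with WT in each library, 1.24 to 1.25% with shFoxA1 and 1.18% in pGIPZ. Against pGIPZ, WT gave 39 higher and 1 lower (33.7% and 11.8% of all genes, 45.5%), and K295A 42 higher and 1 lower (37.8% and 12.8%, 50.5%). Scaling moved the fold changes of all genes by a median of -0.11 for K295A against pGIPZ. It left 21 higher and 3 lower members for WT and 22 higher and 1 lower for K295A. Of the 12568 genes, 2301 were then higher and 2448 lower for WT, and 2541 and 2600 for K295A.

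K295A and WT were compared directly. Of 52 members, 0 were called in limma, and 6 had an unadjusted p under 0.05. Of all genes, 0.183% were called, 0.0876% higher and 0.0955% lower. The members' log2 fold changes ran from -0.19 for EEF1E1 to 0.13 for EIF4E2, and the smallest adjusted p was 0.236, for EIF3B.

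EIF4EBP1, which encodes the best-known 4E-binding protein (chr8:38030341-38060365 in GENCODE 29), had the lowest fold change of any member after shBUB3, after shFOXA1 and with shFoxA1, and the highest with K295A and with WT over shFoxA1. It was 62.2, 68.9 and 64.3 FPKM in shUSP7 libraries, 35.9, 39.8 and 58.9 in shBUB3 and 31.8, 39.0 and 34.1 in shFOXA1, against 103, 109 and 105 in pLKO. All 9 knockdown libraries lay below the 3 controls. The log2 fold changes were -0.69 ± 0.14 (adjusted p = 0.00136), -1.25 ± 0.14 (1.4e-05) and -1.57 ± 0.14 (1.46e-06), from limma with Benjamini-Hochberg adjustment. shFOXA1 did not differ detectably from shBUB3 (-0.32 ± 0.14, limma adjusted p = 0.0617) and was below shUSP7 (-0.88 ± 0.14, limma adjusted p = 0.000182). EIF4EBP1 had 68.3, 57.3 and 65.9 FPKM in siEZH2 libraries, against 126, 123 and 132 in siCtrl, with no overlap and a fold change of -0.99 ± 0.08 (limma adjusted p = 2.86e-06).

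In the pGIPZ experiment EIF4EBP1 moved down with FOXA1 and beyond its control level with either FOXA1 construct. It was 159, 168 and 166 RPKM with K295A, 158, 162 and 153 with WT, 86.1, 85.4 and 82.1 with shFoxA1 alone and 108, 107 and 112 in pGIPZ. The shFoxA1 libraries were the lowest and those of both re-expression groups the highest, with no overlap. The change was -0.36 ± 0.03 for shFoxA1 against pGIPZ (limma adjusted p = 1.26e-06). Against shFoxA1 it was 0.95 ± 0.03 with K295A (limma adjusted p = 2.79e-10) and 0.89 ± 0.03 with WT (4.33e-10), or 0.84 and 0.80 after scaling. Against pGIPZ it was 0.59 ± 0.03 and 0.53 ± 0.03.

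EIF4EBP2, which encodes a 4E-binding protein much like 4E-BP1, took another course. It was 13.7, 12.8 and 13.6 FPKM in shUSP7 libraries, 12.2, 11.8 and 9.80 in shBUB3 and 35.9, 35.9 and 35.3 in shFOXA1, against 20.8, 20.5 and 20.1 in pLKO. The shFOXA1 libraries stood above the controls, and the libraries of the other knockdowns below them. Fold changes were -0.58 ± 0.07 (adjusted p = 1.45e-05), -0.81 ± 0.07 (8.21e-07) and 0.77 ± 0.07 (9.18e-07) in limma, and shFOXA1 was 1.36 ± 0.07 above shUSP7 and 1.59 ± 0.07 above shBUB3. It was 21.8, 17.6 and 17.8 FPKM in siEZH2 libraries, against 27.0, 29.01 and 25.4 in siCtrl (-0.49 ± 0.09, limma adjusted p = 0.00104).

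In the pGIPZ experiment EIF4EBP2 was 18.0, 17.4 and 18.0 RPKM with K295A, 17.1, 17.8 and 16.6 with WT, 19.3, 19.3 and 19.0 with shFoxA1 alone and 13.4, 13.5 and 12.9 in pGIPZ. All 9 libraries with the shRNA lay above pGIPZ. The change was 0.50 ± 0.04 for shFoxA1 against pGIPZ (limma adjusted p = 2.69e-07). EIF4EBP2 was thus higher in both FOXA1 knockdowns, which have separate controls. It also stayed above pGIPZ with re-expressed FOXA1, and the part of the shRNA itself was not tested. WT lay 0.15 ± 0.04 below shFoxA1 (limma adjusted p = 0.00277) and K295A 0.10 ± 0.04 below (0.0245). The K295A call of EIF4EBP2 was lost without the first shFoxA1 library (adjusted p = 0.0656), the second shFoxA1 library (0.0625) or the second K295A library (0.0873).

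EIF4EBP3 was scarce in the pLKO experiment, at 0.750 to 0.998 FPKM in shUSP7 libraries against 1.65 to 2.41 in pLKO. It passed the filter there through groups other than shUSP7, so no test is given. It was 2.78, 2.74 and 2.20 FPKM in siEZH2 libraries against 6.32, 5.03 and 6.12 in siCtrl (-0.93 ± 0.11, limma adjusted p = 3.97e-05). EIF4ENIF1, which encodes the eIF4E transporter, was higher by 0.41 ± 0.07 after shUSP7, 0.32 ± 0.07 after shBUB3 and 0.29 ± 0.08 after siEZH2, with limma adjusted p of 0.000286, 0.00159 and 0.0083.

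**Figure D2:**
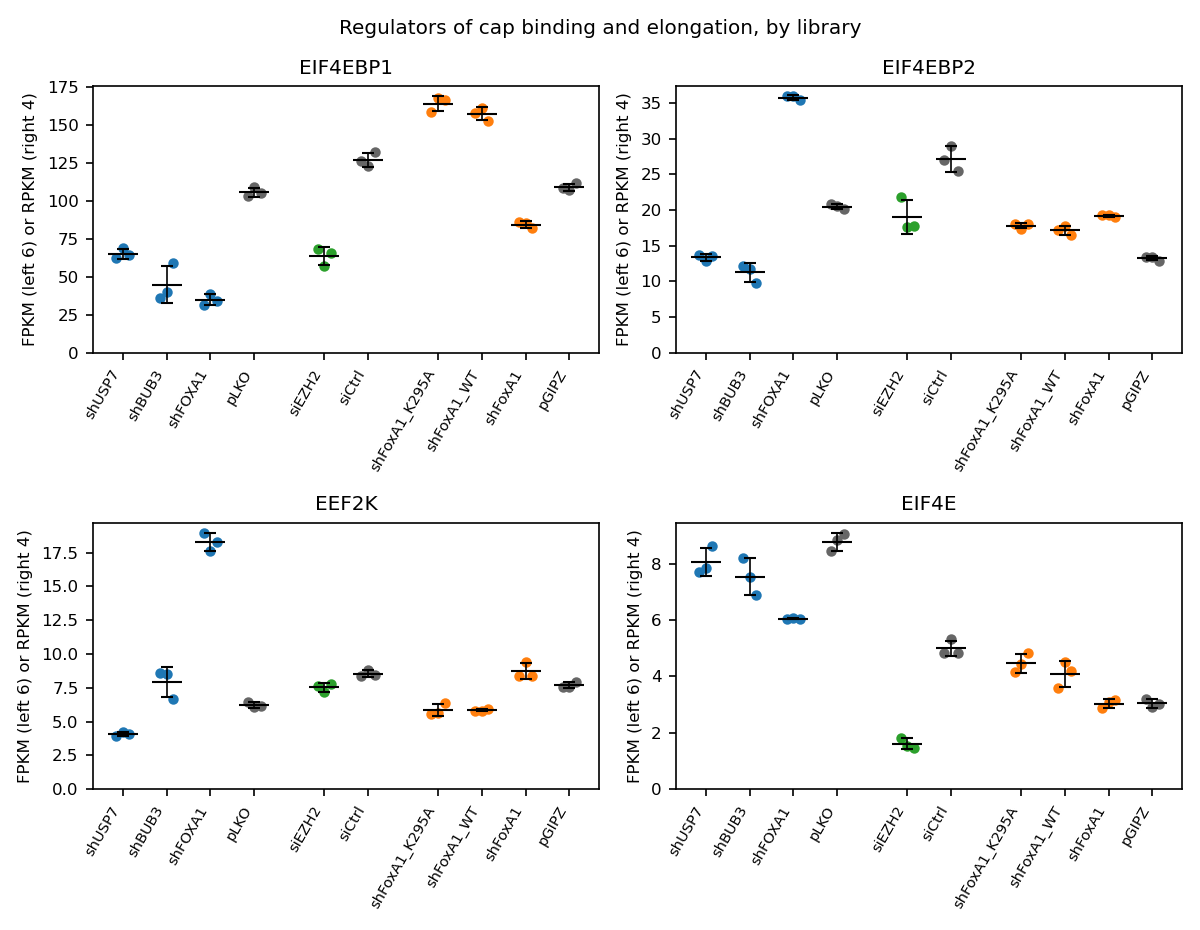
EIF4EBP1, EIF4EBP2, EEF2K and EIF4E in every library, FPKM for the 6 groups on the left and RPKM for the 4 on the right; points are libraries and bars the mean ± SD of 3. EIF4EBP1 is below pLKO in all 3 knockdowns and above shFoxA1 and pGIPZ with K295A and WT, EIF4EBP2 and EEF2K are above pLKO in shFOXA1, and EIF4E is below siCtrl in siEZH2.

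EEF2K encodes the kinase that switches eEF2 off, and its highest level was in shFOXA1. It was 3.93, 4.26 and 4.10 FPKM in shUSP7 libraries, 8.59, 8.51 and 6.69 in shBUB3 and 19.0, 17.6 and 18.3 in shFOXA1, against 6.48, 6.06 and 6.19 in pLKO. No knockdown overlapped the controls. Fold changes in limma were -0.51 ± 0.08 (adjusted p = 0.000155), 0.29 ± 0.08 (0.00633) and 1.41 ± 0.08 (2.11e-08), the last of these 1.56 after scaling. shFOXA1 lay 1.92 ± 0.08 above shUSP7 and 1.12 ± 0.08 above shBUB3. After siEZH2 it was 7.66, 7.17 and 7.80 FPKM against 8.34, 8.82 and 8.46 in siCtrl, a difference of -0.16 ± 0.08 that did not pass (limma adjusted p = 0.0895).

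In the pGIPZ experiment EEF2K was 5.59, 5.67 and 6.37 RPKM with K295A, 5.77, 5.81 and 5.95 with WT, 8.41, 9.39 and 8.36 with shFoxA1 alone and 7.56, 7.59 and 7.94 in pGIPZ. The shFoxA1 libraries were highest and the re-expression libraries lowest. It fell by 0.50 ± 0.06 with K295A and 0.50 ± 0.06 with WT against shFoxA1 (limma adjusted p = 1.26e-05 and 1.22e-05), and was lower than pGIPZ by -0.34 ± 0.06 and -0.35 ± 0.06. Its rise with shFoxA1 against pGIPZ was small (0.16 ± 0.06, limma adjusted p = 0.034). That EEF2K call was lost without the second shFoxA1 library (0.11, adjusted p = 0.14) and without the first (0.0873) or second (0.0866) pGIPZ library. EEF2 itself was 1739, 1674 and 1799 FPKM in shBUB3 and 796, 819 and 782 in shFOXA1, against 1173, 1164 and 1148 in pLKO, or 0.58 ± 0.07 and -0.54 ± 0.07 (limma adjusted p = 3.07e-05 and 4.25e-05).

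Among eIF4F and its helpers, 0 members were higher after siEZH2 and 6 of 8 lower, where 20.3% and 43% of all genes were. The cap-binding subunit fell furthest. EIF4E was 1.83, 1.54 and 1.47 FPKM in siEZH2 libraries, against 4.84, 5.31 and 4.84 in siCtrl, with no overlap (-1.20 ± 0.09, limma adjusted p = 2.67e-06). Its scaffold EIF4G1 was 87.6, 78.8 and 87.5 FPKM against 188, 188 and 176, again with no overlap (-1.11 ± 0.07, limma adjusted p = 5.83e-07). EIF4E2, a cap-binding homologue tied to translational repression, fell by 0.70 ± 0.08 (limma adjusted p = 3.96e-05). EIF4G2 (DAP5), a scaffold without the eIF4E site, had 268, 243 and 227 FPKM in siEZH2 libraries and 252, 294 and 263 in siCtrl, which overlap (-0.13 ± 0.08, limma adjusted p = 0.188).

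After shFOXA1, 0 of 9 tested members of this role were higher and 6 lower. The counts were 4 higher and 3 lower after shBUB3 and 2 and 2 after shUSP7. EIF4E3, which passed the filter only through the shBUB3 libraries, is among the 9, the 4 higher after shBUB3 and the 6 lower after shFOXA1. Of all genes, 25.2% were higher and 45.1% lower after shFOXA1, and 33.3% and 32% after shBUB3. After shUSP7 they were 29.1% and 33%, so the shUSP7 counts did not exceed the background. The helicase cofactor EIF4B moved furthest of the members of this role after shFOXA1. It was 91.0, 96.5 and 101 FPKM in shUSP7 libraries, 199.5, 194.7 and 202 in shBUB3 and 54.1, 54.9 and 60.6 in shFOXA1, against 136, 133 and 127 in pLKO. The 4 groups were fully apart, with shBUB3 on top and shFOXA1 lowest. Fold changes in limma were -0.45 ± 0.06 (adjusted p = 4.22e-05), 0.59 ± 0.06 (4.71e-06) and -1.21 ± 0.06 (7.43e-09), and shFOXA1 lay below shBUB3 by -1.80 ± 0.06. EIF4B with K295A, at 55.0, 55.8 and 54.4 RPKM, and with WT, at 53.8, 50.5 and 53.8, stood above shFoxA1 alone at 41.0, 39.8 and 40.4 (0.44 ± 0.04 and 0.37 ± 0.04, limma adjusted p = 3.81e-06 and 1.44e-05), whereas shFoxA1 and pGIPZ, at 44.7, 39.3 and 41.3, overlapped.

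The scaffolds parted after shBUB3. EIF4G2 was 129, 132 and 102 FPKM in shBUB3 libraries, against 212, 210.4 and 207 in pLKO (-0.80 ± 0.08, limma adjusted p = 5.99e-06), while EIF4G1 rose by 0.55 ± 0.05 in the same libraries (3.73e-06), at 250.2, 241 and 228 FPKM against 171, 162 and 159. EIF4H, a small relative of EIF4B, fell by 0.50 ± 0.06 (limma adjusted p = 1.97e-05). EIF4E2 was 8.20, 7.70 and 8.19 FPKM in shUSP7 libraries and 20.03, 20.2 and 22.6 in shBUB3, against 14.1, 13.5 and 13.7 in pLKO, so that shUSP7 and shBUB3 lay on opposite sides of the control (-0.71 ± 0.05 and 0.57 ± 0.05, limma adjusted p = 4.11e-07 and 2.43e-06). The helicase EIF4A2 was 192, 195 and 202 FPKM in shUSP7 libraries, against 148, 153 and 147 in pLKO (0.39 ± 0.06, limma adjusted p = 0.000153). In the pGIPZ experiment 3 of 8 members of this role were higher with shFoxA1 and 0 lower, where 25% and 24.2% of all genes were. Among the 3 were EIF4G2 (0.26 ± 0.03, limma adjusted p = 1.21e-05) and EIF4E2 (0.26 ± 0.05, 0.00052). EIF4E2 was lower with WT than with shFoxA1 (-0.19 ± 0.05, limma adjusted p = 0.00354).

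The start codon and ternary complex factors were mostly lower after shFOXA1 (9 of 11, with 1 higher), siEZH2 (8 of 11, 2 higher) and shUSP7 (7 of 11, 3 higher), whereas shBUB3 had 4 higher and 2 lower. Of all genes, 45.1% were lower and 25.2% higher after shFOXA1, and 43% and 20.3% after siEZH2. After shUSP7 33% were lower and 29.1% higher, and after shBUB3 33.3% were higher and 32% lower. The eIF2 α subunit EIF2S1, whose phosphorylation is the switch of the integrated stress response, was 20.1, 18.0 and 16.7 FPKM in siEZH2 libraries, against 41.5, 47.7 and 45.3 in siCtrl. The groups were far apart (-1.25 ± 0.09, limma adjusted p = 1.15e-06). EIF2S2 and EIF2S3, the β and γ subunits, fell by 0.99 ± 0.09 and 0.98 ± 0.08 (limma adjusted p = 8.24e-06 and 3.9e-06), so all 3 subunits of eIF2 fell after siEZH2, and EIF1AX, a scanning factor, fell by 1.00 ± 0.11 (1.94e-05). The same subunits fell after shFOXA1, by 0.67 ± 0.05, 0.69 ± 0.10 and 0.32 ± 0.05, and after shUSP7, by 0.38 ± 0.05, 0.57 ± 0.10 and 0.23 ± 0.05, with limma adjusted p of at most 0.00112.

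EIF2A, a tRNA-binding factor that is not a subunit of eIF2, was 10.7, 11.1 and 11.4 FPKM in shUSP7 libraries, 30.9, 30.8 and 30.3 in shBUB3 and 12.8, 12.6 and 14.1 in shFOXA1, against 27.4, 26.6 and 25.9 in pLKO. The shUSP7 and shFOXA1 libraries were under the controls and the shBUB3 libraries just above. Fold changes in limma were -1.20 ± 0.05 (adjusted p = 3.39e-09), 0.20 ± 0.05 (0.00463) and -0.97 ± 0.05 (1.16e-08), and shBUB3 was 1.39 ± 0.05 above shUSP7. It was 36.3, 32.7 and 28.8 FPKM in siEZH2 libraries and 29.5, 34.1 and 32.6 in siCtrl, which overlap (0.02 ± 0.09, limma adjusted p = 0.884).

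With re-expressed FOXA1, 10 of 11 start codon and ternary complex members were higher than with shFoxA1 alone, for K295A as for WT, and 0 were lower. Of all genes, 38.7% were higher and 18.3% lower with K295A, and 36.6% and 18.9% with WT. After scaling 10 of these members were higher and 1 lower with K295A, and 9 higher and 0 lower with WT. Of 12568 genes tested then, 3267 were higher and 3358 lower with K295A, and 3273 and 3297 with WT. EIF2S2 was 28.7, 28.1 and 28.7 RPKM with K295A, 26.0, 26.6 and 27.9 with WT, 18.3, 20.3 and 18.6 with shFoxA1 and 23.5, 20.8 and 20.7 in pGIPZ. Both re-expression groups stood above the other groups (0.55 ± 0.05 and 0.47 ± 0.05 over shFoxA1, limma adjusted p = 3.3e-06 and 1.37e-05). EIF2A rose by 0.46 ± 0.05 and 0.41 ± 0.05 and EIF2S3 by 0.45 ± 0.03 and 0.40 ± 0.03, with limma adjusted p of at most 2.63e-05. shFoxA1 against pGIPZ lowered 4 of the 11 and raised 0, where 24.2% of all genes were lower and 25% higher. The subunit-joining factor EIF5B fell by 0.20 ± 0.03 and the GTPase activator EIF5 by 0.19 ± 0.03 (limma adjusted p = 0.000132 and 0.000249). EIF5 was also lower after shBUB3 (-0.53 ± 0.05, limma adjusted p = 1.1e-06), at 24.8, 24.1 and 23.0 FPKM against 35.4, 35.8 and 33.9 in pLKO. EIF1AD was higher after shFOXA1 (0.46 ± 0.07, limma adjusted p = 7.19e-05) and EIF1B, a near copy of EIF1, was 27.7, 26.8 and 27.1 FPKM after siEZH2 against 17.8, 22.0 and 19.9 in siCtrl (0.44 ± 0.08, limma adjusted p = 0.00105).

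The eIF2B subunits, which form the exchange factor of eIF2, did not move as one. EIF2B2, the β subunit, was 21.1, 23.0 and 23.4 FPKM in shUSP7 libraries, 24.7, 23.9 and 29.9 in shBUB3 and 10.4, 11.04 and 12.4 in shFOXA1, against 14.7, 15.5 and 14.1 in pLKO. It was higher by 0.58 ± 0.09 and 0.78 ± 0.09 and lower by -0.36 ± 0.09 (limma adjusted p = 0.000111, 9.42e-06 and 0.00262), the last not called after scaling (-0.21). The catalytic ε subunit EIF2B5 fell by 0.49 ± 0.05 after shUSP7 (limma adjusted p = 7.62e-06). After siEZH2 3 of 5 subunits were lower and 0 higher, where 43% and 20.3% of all genes were. The γ subunit EIF2B3 was 6.47, 6.34 and 7.05 FPKM there, against 14.4, 14.99 and 14.7 in siCtrl (-1.04 ± 0.07, limma adjusted p = 1.58e-06), and the α subunit EIF2B1 lay just above its control without overlap but did not pass (0.10 ± 0.07, limma adjusted p = 0.216). EIF2B1 was higher after shFOXA1 (0.26 ± 0.08, limma adjusted p = 0.0132), a call lost without the third pLKO library (0.20, adjusted p = 0.0623) or the third shFOXA1 library (0.22, adjusted p = 0.0554).

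eIF3 is the large scaffold on the small ribosomal subunit. Of 12 tested subunits, 10 were higher and 0 lower after shBUB3, with the same 10 to 0 count without the third shBUB3 library. After shFOXA1, 0 were higher and 9 lower. shUSP7 raised 3 and lowered 1, and siEZH2 raised 4 and lowered 3. Of all genes, 33.3% were higher and 32% lower after shBUB3, and 25.2% and 45.1% after shFOXA1. The shares were 29.1% and 33% after shUSP7 and 20.3% and 43% after siEZH2, so the shUSP7 counts did not exceed the background. EIF3F was 154, 146.5 and 187 FPKM in shBUB3 libraries and 57.3, 58.5 and 58.7 in shFOXA1, against 94.5, 105.6 and 94.5 in pLKO. No libraries of the 3 groups overlapped (0.72 ± 0.08 and -0.74 ± 0.08, limma adjusted p = 1.37e-05 and 7.41e-06). EIF3I, EIF3B and EIF3H rose by 0.71 ± 0.08, 0.70 ± 0.08 and 0.67 ± 0.06 after shBUB3, with limma adjusted p of at most 1.71e-05. EIF3I, a WD-repeat subunit, was also higher after shUSP7, at 231, 231 and 230.1 FPKM against 174, 174 and 159 in pLKO (0.45 ± 0.08, limma adjusted p = 0.000337).

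The lowest eIF3 subunit after shFOXA1 was EIF3L, at 41.5, 43.1 and 39.6 FPKM against 85.3, 87.1 and 85.8 in pLKO (-1.04 ± 0.05, limma adjusted p = 7.01e-09), or -0.88 after scaling. EIF3M, EIF3E and EIF3H fell by 0.82 ± 0.12, 0.81 ± 0.06 and 0.62 ± 0.06, with limma adjusted p of at most 6.04e-05, while EIF3B, at 104, 110.3 and 116 FPKM against 116, 117 and 110, overlapped its control (-0.05 ± 0.08, adjusted p = 0.574). After siEZH2, the subunits split within the complex. EIF3B was 124, 113 and 118 FPKM against 82.1, 85.0 and 85.3 in siCtrl (0.48 ± 0.06, limma adjusted p = 9.25e-05), EIF3F 82.6, 79.1 and 84.0 against 60.8, 59.6 and 59.3 (0.44 ± 0.06, 0.000121) and EIF3D, which can bind the cap of some mRNAs, 127, 117 and 118 against 86.7, 92.5 and 96.9 (0.39 ± 0.07, 0.000648). EIF3I, in contrast, was 140.1, 119.7 and 124 against 211, 221 and 221 (-0.76 ± 0.07, limma adjusted p = 1.05e-05), and EIF3J and EIF3A fell by 0.68 ± 0.07 and 0.45 ± 0.07.

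Re-expression raised 12 of 12 eIF3 subunits with K295A and 11 of 12 with WT over shFoxA1, and 0 were lower. Of all genes, 38.7% were higher and 18.3% lower with K295A, and 36.6% and 18.9% with WT. After scaling 8 subunits were higher and 0 lower with K295A, and 8 higher and 1 lower with WT. Of 12568 genes tested then, 3267 were higher and 3358 lower with K295A, and 3273 and 3297 with WT. The subunits' rises before scaling were small, from 0.13 to 0.37 with K295A and 0.11 to 0.35 with WT among those called. EIF3E was 101, 99.7 and 94.5 RPKM with K295A and 96.7, 96.0 and 97.7 with WT, against 77.9, 73.2 and 76.1 with shFoxA1 (0.37 ± 0.03 and 0.35 ± 0.03, limma adjusted p = 2.73e-06 and 4.79e-06). With shFoxA1 against pGIPZ, where 25% of all genes were higher and 24.2% lower, 1 subunit was higher and 4 lower. EIF3M was the lowest of these (-0.18 ± 0.06, limma adjusted p = 0.0195), a call lost without the first pGIPZ library (-0.11, adjusted p = 0.0537) or the first shFoxA1 library (adjusted p = 0.0751).

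Of the 7 elongation members, EEF2K among them, 6 were higher and 0 lower after shBUB3, and 2 were higher and 4 lower after shFOXA1. Of all genes, 33.3% were higher and 32% lower after shBUB3, and 25.2% and 45.1% after shFOXA1. EEF1A1, the tRNA carrier, was 1537, 1532 and 1847 FPKM in shBUB3 libraries and 784, 819 and 881 in shFOXA1, against 1131, 1146 and 1075 in pLKO. The groups were apart, with fold changes of 0.55 ± 0.10 and -0.43 ± 0.10 (limma adjusted p = 0.000369 and 0.00168). EEF1B2, a subunit of its exchange factor, was 152, 153 and 219.7 FPKM in shBUB3 and 56.4, 58.1 and 61.5 in shFOXA1, against 139, 140.2 and 131. It fell by 1.20 ± 0.12 after shFOXA1 (limma adjusted p = 2.22e-06). Its rise after shBUB3 (0.33 ± 0.12, limma adjusted p = 0.0243) was 0.16 without the third shBUB3 library (adjusted p = 0.00644) and was lost without the third pLKO library (adjusted p = 0.0762).

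EEF1G, the γ subunit, was 274, 283 and 294 FPKM in shFOXA1 libraries against 551, 548 and 517 in pLKO (-0.92 ± 0.10, limma adjusted p = 6.65e-06). EEF1D, the δ subunit, went against them in the same libraries, at 49.7, 54.7 and 58.7 FPKM against 37.2, 39.1 and 38.7 (0.49 ± 0.14, limma adjusted p = 0.00862). EEF1E1, which encodes a scaffold protein of the tRNA synthetase complex, was 3.64, 4.10 and 3.14 FPKM in siEZH2 libraries against 9.92, 10.4 and 11.6 in siCtrl, the lowest fold change of any member there (-1.33 ± 0.10, limma adjusted p = 2.03e-06). EEF1A2 was 478, 498 and 489 RPKM with shFoxA1 against 368, 383 and 382 in pGIPZ (0.37 ± 0.02, limma adjusted p = 6.54e-08), while EEF1A1, at 79.2, 78.3 and 77.8 against 76.3, 78.4 and 81.1, overlapped its control. EEF1A2 was 329, 344 and 316 FPKM in shFOXA1 libraries and 319, 329 and 308 in pLKO (0.05 ± 0.11, limma adjusted p = 0.724). EEF1B2 was lower with shFoxA1 (-0.24 ± 0.04, limma adjusted p = 0.000679), and EEF1E1 was higher with WT (0.42 ± 0.12, adjusted p = 0.0117), or by 0.26 (adjusted p = 0.0303) without the second WT library.

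EIF5A, the hypusine-carrying factor that helps ribosomes through difficult sequences, was 128, 126 and 128 FPKM in shUSP7 libraries, against 205, 206 and 193 in pLKO (-0.66 ± 0.10, limma adjusted p = 0.00011). Its paralogue EIF5A2 was 0.170, 0.198 and 0.210 FPKM in shUSP7 libraries, 2.50, 2.37 and 1.74 in shBUB3 and 0.367, 0.308 and 0.348 in shFOXA1, against 1.33, 1.10 and 1.11 in pLKO. These low values were fully separated by group. EIF5A2 was 1.29, 1.25 and 1.27 RPKM with K295A and 1.16, 1.26 and 1.33 with WT, against 0.433, 0.827 and 0.513 with shFoxA1, and no test is given for it. EIF6, which keeps the large ribosomal subunit from joining too early, was 68.0, 67.7 and 67.6 FPKM in shUSP7 libraries, against 43.3, 45.4 and 44.3 in pLKO, the largest rise of any member there (0.60 ± 0.09, limma adjusted p = 7.7e-05). EIF4A3, a helicase of the exon junction complex, was 31.6, 33.2 and 32.3 FPKM after shFOXA1 against 42.3, 43.7 and 40.4 (-0.37 ± 0.08, limma adjusted p = 0.00154, not called after scaling at -0.21) and 50.8, 52.3 and 52.5 RPKM with shFoxA1 against 43.6, 40.1 and 42.4 (0.30 ± 0.04, adjusted p = 5.62e-05). EEF2KMT, the eEF2 lysine methyltransferase, was lower after shUSP7 by -0.74 ± 0.08 (limma adjusted p = 1.31e-05).

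**Figure D3:**
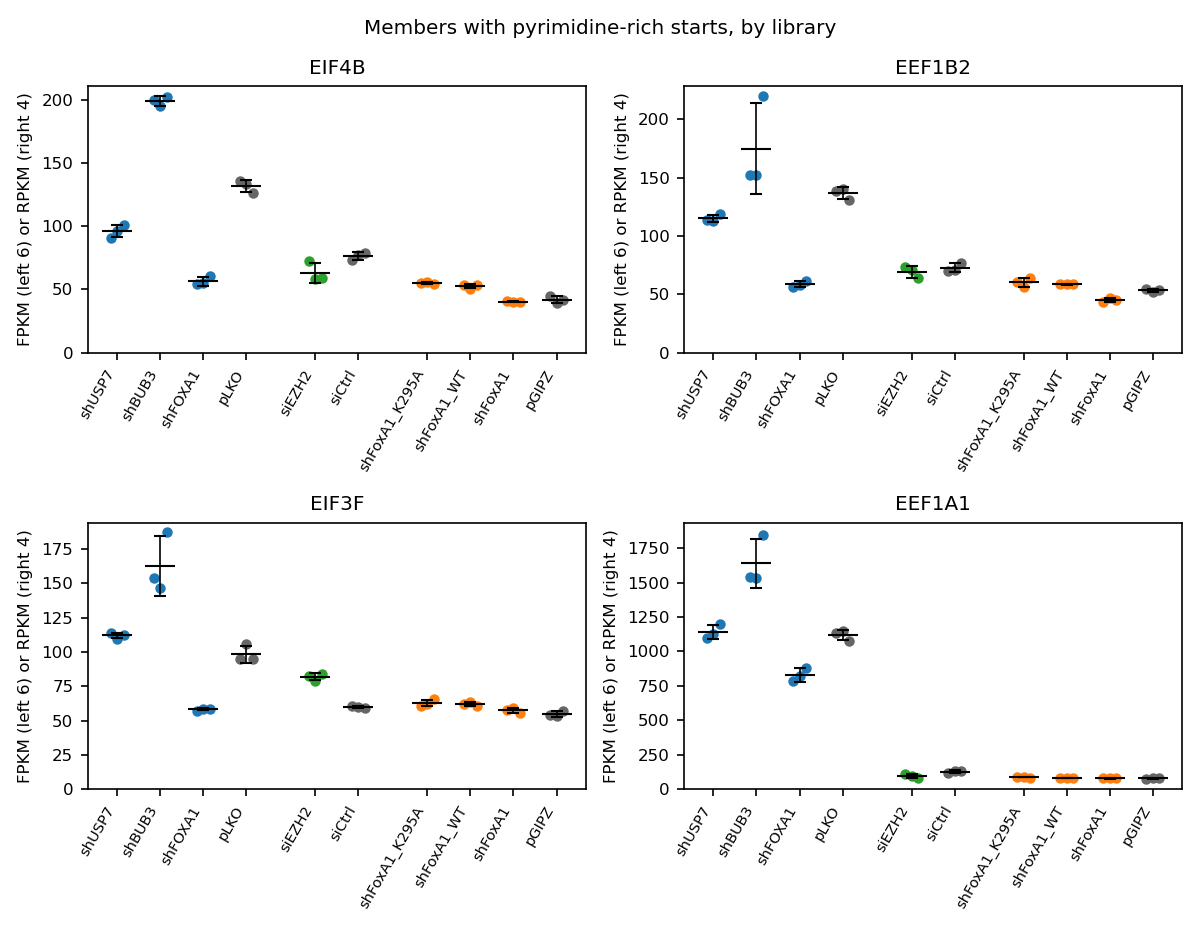
EIF4B, EEF1B2, EIF3F and EEF1A1 in every library, FPKM for the 6 groups on the left and RPKM for the 4 on the right; points are libraries and bars the mean ± SD of 3. In each panel shBUB3 lies above pLKO and shFOXA1 below it, with the third shBUB3 library on top in EEF1B2, EIF3F and EEF1A1.

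The 9 members known for TOP mRNAs (EEF1A1, EEF1A2, EEF1B2, EEF1D, EEF1G, EIF3E, EIF3F, EIF3H and EIF4B) were set beside the other members. After shBUB3, 9 of 9 were higher, also without the third shBUB3 library, with a median of 0.55 (0.44 without it) against 0.20 for the other members. Of all genes, 33.3% were higher and 32% lower. After shFOXA1, 7 TOP members were lower and EEF1D higher, with a median of -0.74 against -0.36. The 81 tested ribosomal protein genes, which share the TOP element, had 79 lower and 1 higher (median -0.86). Of all genes, 45.1% were lower and 25.2% higher. Ribosomal protein genes were 10.9 to 11.01% of all FPKM in shFOXA1 libraries and 17.0 to 17.6% in pLKO. Their share was 17.09 to 17.41% in shUSP7 libraries and 17.77 to 22.19% in shBUB3. In the siRNA experiment it was 14.25 to 14.39% with siEZH2 and 11.9 to 12.9% in siCtrl. After shBUB3 the ribosomal protein genes had 54 higher and 3 lower (median 0.39), or 55 and 8 (median 0.21) without the third shBUB3 library. Fewer TOP members were called after shUSP7 (1 higher and 2 lower, median 0.03) and siEZH2 (2 higher and 2 lower, median -0.03, against -0.45 for the other members). Of all genes, 29.1% were higher and 33% lower after shUSP7, and 20.3% and 43% after siEZH2, so these counts were near or under the background.

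With shFoxA1 in the pGIPZ experiment, 1 TOP member was higher and 2 lower, while 56 of 81 ribosomal protein genes were lower and 0 higher. Of all genes, 25% were higher and 24.2% lower, so the TOP counts were near or under the background. Re-expression raised 7 TOP members with K295A and 6 with WT over shFoxA1 and lowered 0, with medians of 0.28 and 0.27. Of all genes, 38.7% were higher and 18.3% lower with K295A, and 36.6% and 18.9% with WT. After scaling 5 TOP members were higher and 2 lower with K295A, and 5 higher and 1 lower with WT. Of 12568 genes tested then, 3267 were higher and 3358 lower with K295A, and 3273 and 3297 with WT. Ribosomal protein genes had 74 higher and 1 lower with K295A and 74 higher and 0 lower with WT, or 58 and 1, and 61 and 1, after scaling.

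Divided by the letters at the start, the 12 members with a tract had a median of -0.54 after shFOXA1, with 10 lower and 0 higher. The 31 tested members whose window has no tract had a median of -0.25 (19 lower and 4 higher). Of all genes, 45.1% were lower and 25.2% higher after shFOXA1, and 43% and 20.3% after siEZH2. After shBUB3 the medians were 0.42 and 0.27, or 0.26 and 0.16 without the third shBUB3 library. After siEZH2 they were -0.10 with a tract (3 higher, 5 lower) and -0.46 without (4 higher, 20 lower). With shFoxA1 they were -0.03 and 0.07, with K295A over shFoxA1 0.30 and 0.13, and with WT 0.24 and 0.09. EEF1B2 and EIF4B, whose windows stand above with tracts, were among the lowest after shFOXA1, but EEF1G, with no tract at its annotated start, fell by 0.92 as well. Members with annotated pseudogenes also had the lower median after shFOXA1 (-0.47, 20 of 25 lower) than those without (-0.24, 16 of 28 lower), and the parts of start letters and of read assignment were not tested.

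**Figure D4:**
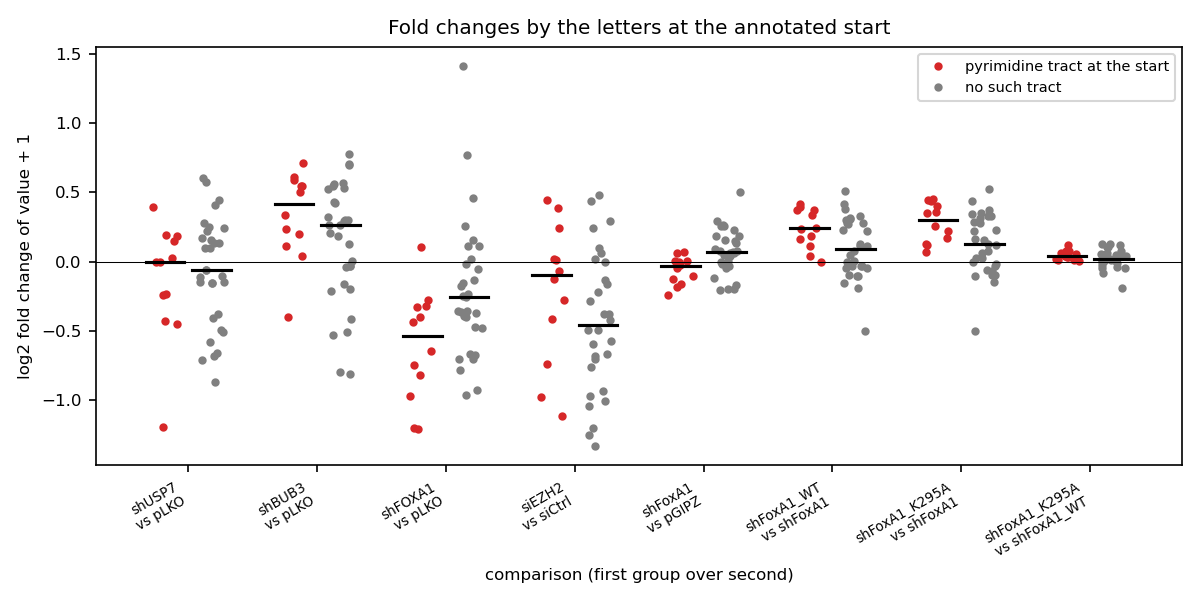
Log2 fold change (value + 1 scale) of tested members with a pyrimidine tract at an annotated start and of members without one, side by side for 8 comparisons; points are members and bars medians. The medians are -0.54 and -0.25 for shFOXA1 and -0.10 and -0.46 for siEZH2.

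Of 40 other translation genes (kinases, phosphatases, mTOR components, RNA-binding, recycling and hypusine factors), 6 were higher and 19 lower after shFOXA1, 4 and 20 after siEZH2, 13 and 12 after shUSP7 and 16 and 8 after shBUB3 (24 and 8 without the third shBUB3 library). Beside all genes, 19 of 40 lower after shFOXA1 was near 45.1% and 20 of 40 lower after siEZH2 near 43%. The 13 higher and 12 lower after shUSP7 were near 29.1% and 33%, so these counts were close to the background. The 6 and 4 of 40 higher after shFOXA1 and siEZH2 were under the shares of all genes, 25.2% and 20.3%. After shBUB3, 33.3% of all genes were higher and 32% lower, or 4720 and 4297 of 12473 without the third shBUB3 library. With scaling the counts were 9 higher and 14 lower after shFOXA1 and 8 and 14 after siEZH2. Of all genes tested then, 4205 were higher and 4492 lower of 12541 after shFOXA1, and 3421 and 4046 of 11911 after siEZH2. After shFOXA1 MTOR, the kinase upstream of the 4E-binding proteins, fell by 1.03 ± 0.12, the recycling factor ABCE1 by 1.10 ± 0.05 and the eIF2 kinase EIF2AK4 by 0.91 ± 0.07, while DEPTOR, an mTOR inhibitor, rose by 1.05 ± 0.07 and PPP1R15A, which brings a phosphatase to eIF2, by 1.11 ± 0.07. After siEZH2 the S6 kinase RPS6KB2 fell by 1.92 ± 0.07, the eIF4E kinase MKNK2 by 1.28 ± 0.07 and MTOR by 1.23 ± 0.08. shUSP7 raised PDCD4, an eIF4A inhibitor, by 1.02 ± 0.06 and lowered DDIT4, an mTOR inhibitor induced by stress, by -1.44 ± 0.08, and shBUB3 raised RPS6KB2 by 1.51 ± 0.10 and RPTOR by 0.91 ± 0.07. In the pGIPZ experiment, 14 were higher and 6 lower with shFoxA1, where 25% and 24.2% of all genes were. DEPTOR rose by 2.17 ± 0.06 with shFoxA1 against pGIPZ and was lower by -1.32 ± 0.06 with K295A and -1.41 ± 0.06 with WT against shFoxA1. Limma adjusted p was at most 0.000178 for the genes named here.

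The pLKO and pGIPZ experiments each hold a FOXA1 knockdown with its own control, so their calls can be crossed over the 52 members tested in both. EIF4EBP2, EIF2B1 and EEF2K were higher in both, 10 members were lower in both (EIF3I, EIF3M, EEF1G, EIF5, EIF2S2, EIF5B, EEF1B2, EIF3L, EIF4EBP1 and EIF2S3), and 4 were lower in shFOXA1 but higher in shFoxA1 (EIF2B2, EIF4A3, EIF4E2 and EIF4H). Another 21 were lower in shFOXA1 and not called in shFoxA1. The 4 and the 21 are 11.4% and 60% of the 35 members lower in shFOXA1, beside 14.2% and 51% of all genes lower there. The 3 higher in both are 60% of the 5 members higher in shFOXA1, beside 44.5% of all genes higher there. The 10 are 28.6% of the 35 members lower in shFOXA1, against 34.8% of all genes lower there, so sharing the lower call was no more frequent among members than among all genes. Of those 35 members, 29 (82.9%) were higher with K295A and 28 (80%) with WT against shFoxA1. Of all genes lower in shFOXA1, 60.8% and 58.4% were. EIF5A2 is among the 35, the 29 and the 28, and it passed the filter there only through the K295A and WT libraries. EIF4EBP2 and EEF2K, higher in shFOXA1, were lower with both. They are 40% of the 5 members higher in shFOXA1, beside 42.4% of all genes with K295A and 43.1% with WT. shFOXA1 and siEZH2, also with separate controls, lowered 25 members in common, EIF5A2 among them. These are 71.4% of the 35 lower in shFOXA1, beside 57.8% of all genes lower there. EIF3F, EIF1B and EIF3D were lower in shFOXA1 and higher in siEZH2. They are 8.57% of the 35, beside 10.6% of all genes lower in shFOXA1. Of the 30 members higher in shBUB3 and tested in both, 12 (40%) were lower in siEZH2 and 6 higher, beside 45.5% and 20.3% of all genes higher in shBUB3, which is near the background, and 7 of 8 members lower in shBUB3 were lower in siEZH2 as well (49% of all genes).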

How the data were processed

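RNA-seq of total RNA from LNCaP cells gave 30 libraries in 10 groups of 3. The authors deposited FPKM values (reads scaled by gene length and library size) for the 18 libraries of the pLKO and siRNA experiments, and the authors deposited RPKM values, which are scaled the same way, for the 12 libraries of the pGIPZ experiment. Per the labels' protocols, libraries were made with a NEBNext Ultra kit and sequenced on an Illumina HiSeq instrument. STAR and the build hg38 are named in the submitters' processing notes, and which tool and annotation made the gene values is not given in the sources used here. 0 deposited columns were left out.

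No counts were used. Relative depth was read from the steps between low values. Values were tested as log2(value + 1) after keeping genes at 1 or more in at least 3 libraries of an experiment, with limma 3.58.1 in R 4.3.3 (an intensity trend, 1 fit per experiment, two-sided, Benjamini-Hochberg adjustment over all genes tested). The pseudocount understates changes of low genes, and scaling to library size makes every value relative to the other RNA of its library. With 3 libraries a side an exact permutation p cannot be smaller than 0.1, so none was used. Nothing in the files marks strand, so reads of a member and of an overlapping gene on the other strand, or of a pseudogene, cannot be told apart. Tables were normalized separately, and tests stay within a table. Levels are mean ± SD and fold changes ± SE, n = 3.

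The members and lists were chosen with earlier results of these data known. Up to 5 higher and 5 lower called members per comparison, by fold change, and members with fixed roles are named. Same-numbered libraries deviated together with a correlation over 0.1 in 2 of 18 pairs in the pLKO experiment and in 0 of 3 and 0 of 18 pairs in the others, so the numbers did not pair the libraries. Alternatives were a pseudocount of 0.1, no filter, median-ratio scaling, a replicate block, a fit of 2 groups and leaving out each library. Scripts were tested on simulated data. Gene positions are from GENCODE 29. Python 3.11.15, pandas 2.3.3 and matplotlib 3.10.9 were used for sequences and plots. 1 marker gene is not reported here.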

Additional observations from a re-analysis of the deposited data

Results flagged for a closer look

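For 6 members the 2 FOXA1 knockdowns, each with its own control, moved all libraries in opposite directions. The log2 fold change was -0.36 for EIF2B2 with shFOXA1 over pLKO and 0.26 with shFoxA1 over pGIPZ. It was -0.48 and 0.0934 for EIF3J, -0.37 and 0.30 for EIF4A3, and -0.13 and 0.23 for EIF6. It was -0.36 and 0.26 for EIF4E2, and -0.40 and 0.18 for EIF4H. In each case the 3 knockdown libraries lay on one side of their 3 controls in the pLKO experiment and on the other side in the pGIPZ experiment. In these experiments 79.4% and 56.4% of all genes had no overlap, and the share that did so in opposite directions is not given. By calls, 4 of 52 members (7.69%) were lower in shFOXA1 and higher in shFoxA1, beside 6.55% of all genes. The reverse held for 0 members and 3.59% of all genes, so the members were near the background. The values come from 2 tables that were normalized separately, and the difference was not tested. EIF6 in the pLKO experiment and EIF3J in the pGIPZ experiment did not pass their own tests (limma adjusted p = 0.191 and 0.075). After median-ratio scaling EIF2B2 and EIF4A3 were not called in the pLKO experiment.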

How the results depend on the processing

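Most values of the members kept direction and call, and 12 reversed under median-ratio scaling and 1 without a library. A pseudocount of 0.1 weakened 0 values, no filter 17, the replicate block 9, a fit of 2 groups 27, scaling 66 and leaving out a library 162. Under scaling the reversed values were, for WT over shFoxA1, -0.0868 for EIF3B, and for K295A over shFoxA1, -0.0833 for EIF4G2, -0.0879 for EEF1A2, -0.0386 for EIF4G1 and -0.10 for EEF1D. For WT over pGIPZ they were -0.00027 for EEF1G, -0.0155 for EIF5 and -0.10 for EIF4G1, and for K295A over pGIPZ, -0.0077 for EEF1G, -0.0453 for EIF4G1, -0.0039 for EEF1A1 and -0.0235 for EEF1D. Scaling also cut the members called to 24 for WT over pGIPZ (40 before) and 23 for K295A over pGIPZ (43 before). All genes called went to 4749 for WT (5716 before) and 5141 for K295A (6350 before). The other reversal was EIF4G3 in shBUB3 over shUSP7, 0.16 without the third shBUB3 library (adjusted p = 0.00671) and -0.108 at the lowest without another. For K295A over WT, 23 of all genes were called, against 11 with no filter, 14 with the replicate block, 6 with a fit of 2 groups and 9 to 18 without 1 library, 26 with a pseudocount of 0.1 and 29 with scaling, and 0 members under each of these. With the replicate block the members called were 30 for shUSP7, 40 for shBUB3, 41 for shFOXA1, 37 for siEZH2, 22 for shFoxA1, 36 for K295A and 34 for WT (30, 39, 41, 37, 22, 36 and 35 before). The fit of 2 groups was not run for siEZH2, where it is the same fit. The cause was not tested. Values near 1, as for EIF5A2, EIF4EBP3 and EIF4E3, and the deposited scaling limit the precision, and no count of reads stands behind a value.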

Other observations

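EIF4E3, a relative of the cap-binding EIF4E, passed the filter in the pLKO experiment only. It was 1.30, 1.23 and 1.13 FPKM in shBUB3 libraries and 0.252, 0.273 and 0.324 in shFOXA1, against 0.509, 0.576 and 0.439 in pLKO. The shBUB3 libraries lay above and the shFOXA1 libraries below the controls. It passed only through the shBUB3 libraries, the only ones at 1 or more, so no test is given. It was chosen after its values were seen.

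EZH2 was itself lower in the pLKO experiment, by -0.90 ± 0.06 after shUSP7, -1.29 ± 0.06 after shBUB3 and -0.98 ± 0.06 after shFOXA1 (limma adjusted p = 1.43e-07, 6.6e-09 and 4.1e-08), and FOXA1 was lower after siEZH2 (-0.54 ± 0.07, limma adjusted p = 5.83e-05). With shFoxA1 against pGIPZ, EZH2 did not pass (-0.03 ± 0.04, limma adjusted p = 0.605). The part of these differences in the members' values was not tested.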
